A study of Sus scrofa with 9 samples.

Results

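Heat shock proteins and chaperonins are the proteins that help other proteins fold, refold or be handed on for disposal, and the genes described here encode those of the cytosol and of mitochondria, with the factors that assist or induce them. Members were taken by gene symbol: symbols starting with HSPA, HSPB, HSP90A, DNAJA, DNAJB or DNAJC, BAG followed by a digit, CCT2 to CCT8 and, by full name, TCP1, HSPD1, HSPE1, HSPH1, HSF1, HSF2, STIP1 and AHSA1. These prefixes took 78 symbols, and 4 of the endoplasmic reticulum (HSPA5, DNAJB9, DNAJB11 and DNAJC3) were dropped, which left 74 members of 30477 gene IDs, of which 14864 were paired with a symbol. The rule used names only and no measured value. HSP90AA1, HSPA1A, HSPA1B and CCT6A, which the rule also names, found no match by symbol and are not analysed here. Other members of the endoplasmic reticulum, such as DNAJC1, DNAJC10 and HSPA13, stayed in by the rule, as did HSPBAP1, which shares a prefix with the small heat shock proteins without being one.

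The cells were porcine embryonic fibroblasts, connective tissue cells of pig embryos that had been thawed and grown in culture. RNA was sequenced from untreated controls at 0 h and from cultures kept with insulin, a hormone that promotes nutrient uptake and growth, for 48 h and for 72 h, with 3 libraries at each time that the submitters describe as biological replicates. Pig breed, insulin dose and medium are not stated in the sources used here. Without untreated cultures at the later times, insulin and time in culture cannot be told apart in any comparison below. The p-values set each difference against the spread between these libraries within a time, and no other source of variation enters them.

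HSP70 proteins bind exposed hydrophobic stretches of other proteins and release them in cycles driven by ATP. J proteins (DNAJ) start the cycle, exchange factors such as the HSP110 family, the BAG proteins and HSPBP1 drive off ADP, and cochaperones such as STIP1 pass clients on to HSP90. The chaperonin TRiC is a chamber of stacked rings that folds actin and tubulin, small heat shock proteins (HSPB) hold unfolding proteins without ATP, and HSF1 is the transcription factor that induces many of these genes when unfolded proteins build up.

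Values are FPKM, which divide the fragments of a gene by its length and by the size of the library, so that levels can be set side by side between genes. The FPKM of all genes summed to 487858 to 563656 per library, lowest in the 0 h libraries. Read numbers are unknown, but from the spacing of the lowest values 48 h replicate 3 was sequenced 1.36 times as deeply as 0 h replicate 1, and each other library 0.99 to 1.01 times as deeply. All 9 fibroblast markers found in the files were expressed, with summed levels of 20124 to 21015 FPKM at 0 h, 18852 to 19469 at 48 h and 20418 to 21040 at 72 h. Most of these sums is COL1A1, COL1A2 and VIM, and single markers moved. By the limma fit described below, 5 rose and 3 fell at 48 h, and 6 rose and 1 fell at 72 h. Called were thus 88.9% and 77.8% of the 9, beside 49.9% and 45.5% of all tested genes. Mean FPKM from 0 h to 72 h went from 9.34 to 36.4 for PDGFRA, 12.7 to 48.3 for LUM and 26.5 to 72.2 for DCN. The 3 that fell at 48 h were collagens. Means at 0 h, 48 h and 72 h were 8407, 7288 and 8196 for COL1A1, 5680, 4276 and 4953 for COL1A2, and 1208, 961 and 1100 for COL3A1. The defining blood markers PTPRC, HBB and CD3E and the endothelial marker CDH5 were at 0 in every library, all 5 blood markers summed to 0.72 FPKM at most and all 4 endothelial markers to 1.16. The 5 skeletal muscle markers summed to 1427 to 1458 FPKM at 0 h, 860 to 940 at 48 h and 792 to 996 at 72 h, nearly all of it DES (desmin). The 5 epithelial markers summed to 5.83 to 6.96, 12.63 to 13.85 and 9.68 to 10.68 FPKM, and the 4 neural markers, mostly TUBB3, to 63.84 to 72.22, 134.81 to 162.29 and 127.37 to 149.53. The neural marker ELAVL4 went the other way, at means of 1.74, 1.08 and 0.877 FPKM. The part of these shifts in the results below was not tested.

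Of the 74 members, 62 reached an FPKM of 1 in at least 3 libraries and were tested. The other 12 were HSPA6, HSPA1L, HSPA12B, HSPB3, HSPB9, DNAJB13, DNAJC5B, DNAJC6, DNAJC12, DNAJC22, DNAJC27 and DNAJC28. These 12 ranged from 0 to 1.02 FPKM over the 9 libraries, and DNAJC5B was listed at 0 in each. At 0 h, 11 members lay at 100 FPKM or more, 37 between 10 and 100, 14 between 1 and 10 and 12 below 1. The most abundant was HSPA8, the constitutive cytosolic HSP70, at 625 ± 9.60 FPKM (mean ± SD, n = 3), followed by the small heat shock protein HSPB1 at 481 ± 9.79 and the HSP90 gene HSP90AB1 at 430 ± 2.80. HSPE1, the lid of the mitochondrial chaperonin, came next at 223 ± 4.51. The TRiC subunit CCT3 at 193 ± 2.29 and the mitochondrial HSP70 gene HSPA9 at 191 ± 0.69 did not differ beyond their spread. HSPB6 stood at 167 ± 7.99 FPKM, above CCT7, TCP1, HSPA4 and HSPD1 at 142, 131, 122 and 110. The 74 members together made up 0.853% ± 0.0041 of all FPKM at 0 h, 0.834% ± 0.0083 after 48 h and 0.801% ± 0.013 after 72 h. In bulk RNA, fewer cells that use a gene and less of its RNA per cell cannot be told apart.

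**Figure D1:**
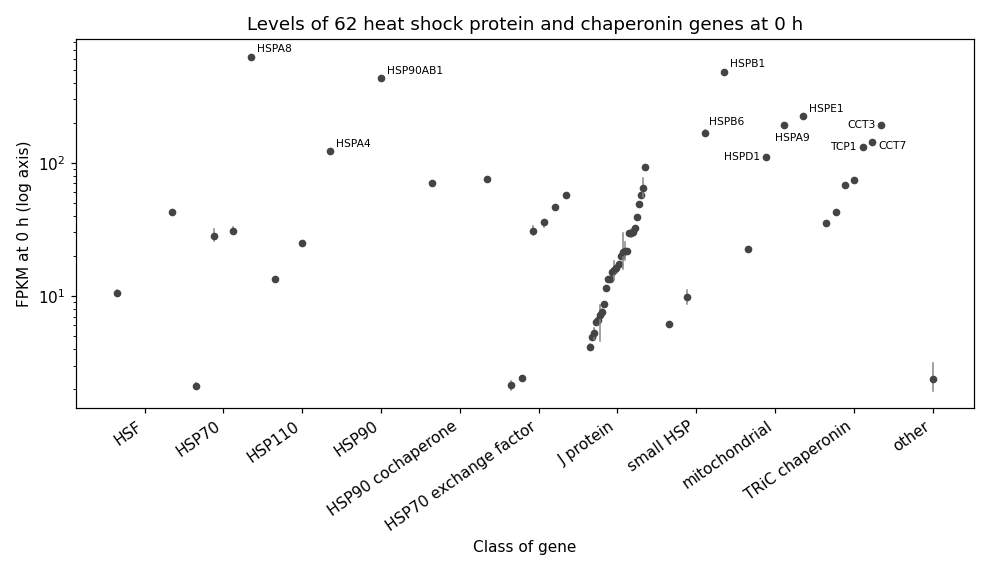
Each point is the mean FPKM at 0 h (log axis) of 1 tested gene, by class, with a line from the lowest to the highest of the 3 libraries. HSPA8, HSPB1 and HSP90AB1 lead at 625, 481 and 430 FPKM, while J proteins range over the lower levels.

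At 48 h, 9 members were higher and 13 lower than at 0 h of 62 tested, 35.5% called in all (14.5% higher and 21.0% lower), beside 49.9% of all 11063 tested genes (27.6% higher and 22.4% lower). A gene was called at an adjusted p below 0.05 in a single limma fit over all genes, on log2(FPKM + 1), a scale that understates the change of low genes. At 72 h against 0 h, 4 were higher and 20 lower (38.7%, of which 6.45% higher and 32.3% lower), beside 45.5% of all genes (23% higher and 22.5% lower). Both comparisons use the same 0 h libraries. Between 48 h and 72 h, 1 member rose and 15 fell (25.8%, of which 1.61% higher and 24.2% lower), beside 25.4% of all genes (9.17% higher and 16.3% lower). The libraries of both times did not overlap for 34 members at 48 h, 26 at 72 h and 26 between 48 h and 72 h, beside 60%, 58.6% and 38.9% of all genes. By the F-test over the 3 times, 30 members differed (48.4%), beside 60.6% of all genes. The share of members called was thus below that of all genes against 0 h, and close to it between 48 h and 72 h.

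Changes were mostly small. Median log2 changes of the tested members were 0.01 at 48 h, -0.07 at 72 h and -0.13 between 48 h and 72 h, beside 0.02, -0.01 and -0.03 over all tested genes. A change of at least 0.5 in size was seen for 4 members at 48 h, 6 at 72 h and 1 between 48 h and 72 h. Changes of that size were not counted over all tested genes, so small changes are not shown to be particular to the members. Over the 3 comparisons, 9 members were called lower at both 48 h and 72 h and not called between them. Another 8 fell at 72 h against both earlier times, and 5 rose at 48 h and fell again by 72 h. HSPB6 alone was called higher in all 3 comparisons and CCT8 alone lower in all 3, and 28 members were called in none, HSP90AB1, HSPD1, DNAJA1, DNAJB1 and BAG3 among them. These patterns were not counted over all tested genes, so whether any is more common among the members is not known. The split at 48 h depended on the scaling of the libraries: with FPKM sums made equal, which moved the median of all tested genes from 0.02 to -0.10, 3 members were higher and 21 lower, and after quantile normalization 3 and 17. The split of all 11063 tested genes moved too. It was 3048 higher and 2476 lower as deposited, 1959 and 3691 with equal sums, and 2665 and 2747 after quantile normalization. Between 48 h and 72 h, with equal sums, 2 members were higher and 6 lower. Of all tested genes, 1426 were then higher and 1127 lower, beside 1014 and 1800 as deposited. At 72 h against 0 h the split of the members stayed near that of the deposited values, at 2 and 23 with equal sums and 4 and 24 after quantile normalization. For all tested genes it was 2542 and 2487 as deposited, 2159 and 2927 with equal sums, and 2616 and 2486 after quantile normalization.

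**Figure D2:**
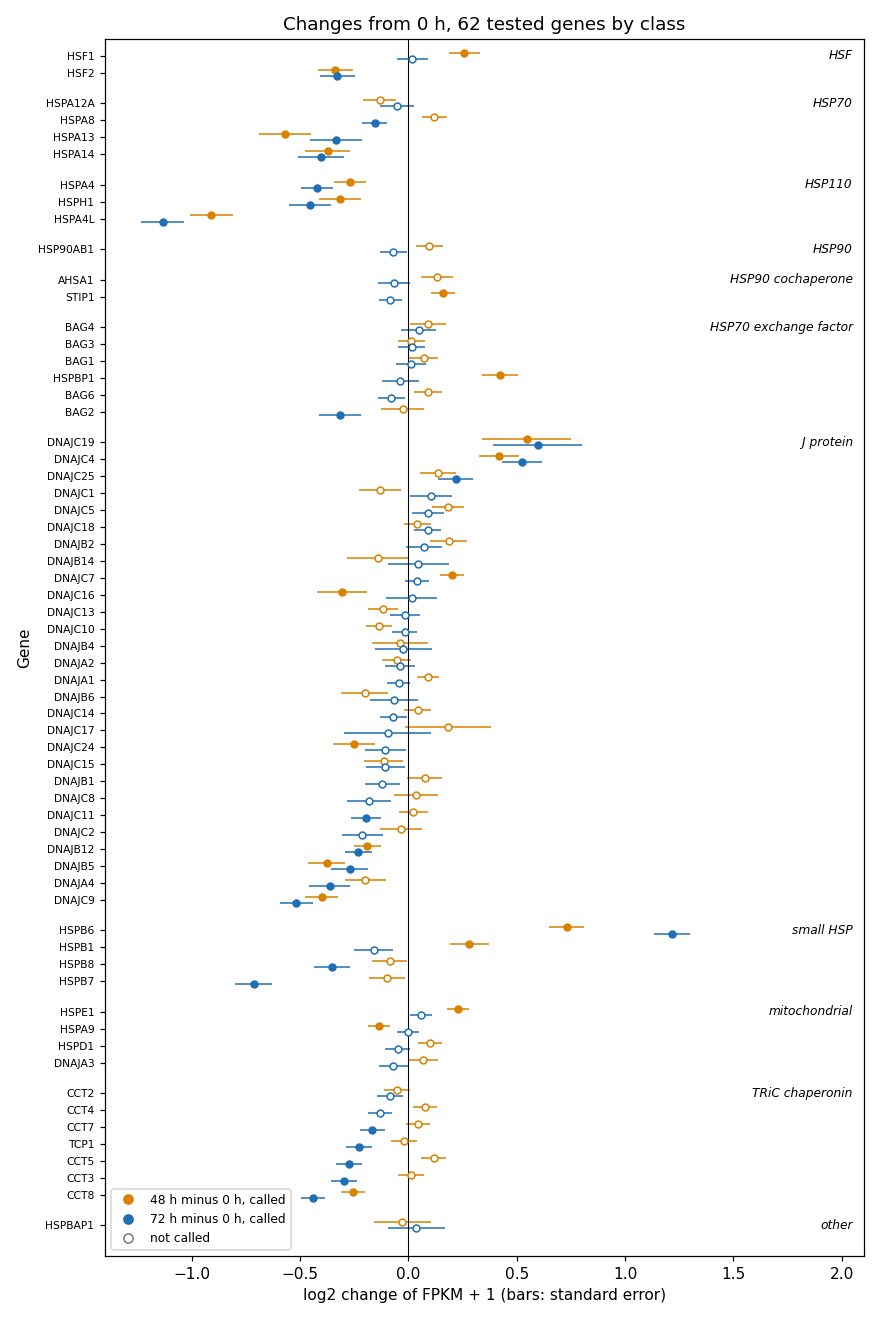
Log2 changes of FPKM + 1 from 0 h to 48 h (orange) and to 72 h (blue) for the 62 tested genes by class, with bars of 1 standard error and filled points where limma's adjusted p was below 0.05. HSPB6 lies farthest to the right at 0.73 and 1.22, HSPA4L farthest to the left at -0.91 and -1.13, and the TRiC subunits lie left of 0 at 72 h.

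**Figure D3:**
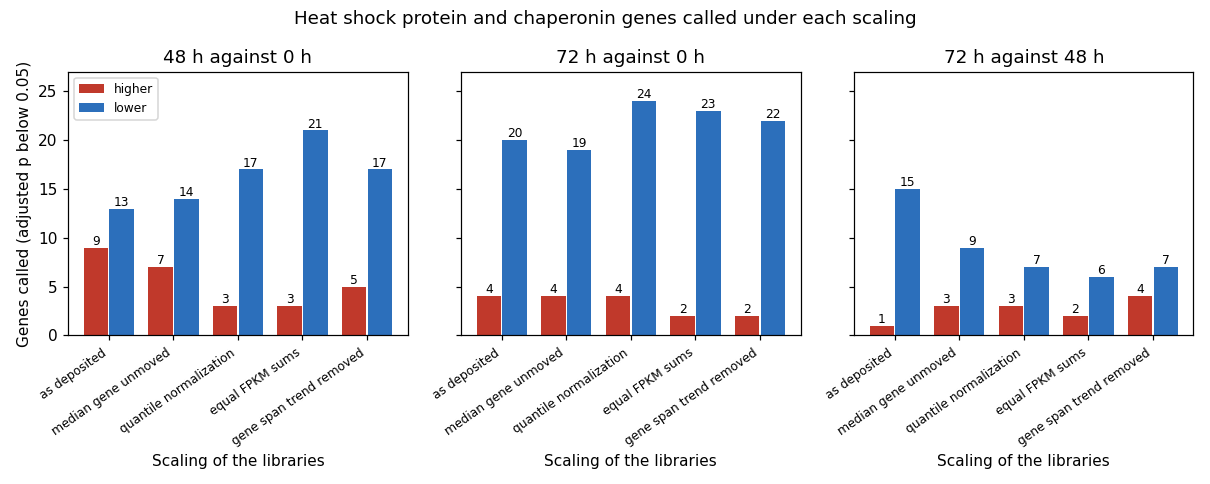
Bars give the number of tested genes called higher or lower in each comparison under the deposited values and 4 other scalings of the libraries. At 48 h the higher calls range from 9 to 3 and the lower calls from 13 to 21, while at 72 h against 0 h lower calls lead under each scaling. Over all 11063 tested genes, not drawn, the 48 h calls were 3048 higher and 2476 lower as deposited, and 1959 and 3691 with equal sums.

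The heat shock factors moved apart at 48 h. HSF1 (chromosome 4, 463531 to 486483; all coordinates are gene spans in Sscrofa11.1 from RefSeq) read 44.4, 42.5 and 41.1 FPKM at 0 h, 56.3, 51.2 and 46.6 at 48 h and 43.0, 44.2 and 42.4 at 72 h. All 48 h libraries lay above the other 6, and the change of 0.26 ± 0.07 (SE) at 48 h was called (adjusted p = 0.0112). The call was lost after quantile normalization and with equal sums, at 0.13 and 0.12 (adjusted p = 0.0964 and 0.0962). Its fall from 48 h to 72 h, by 0.24 (adjusted p = 0.0304), was lost without 48 h replicate 1 or 2 or 72 h replicate 1 or 3 (adjusted p = 0.0792 to 0.0822), and under each of the 4 other scalings (adjusted p = 0.0523 to 0.0847). HSF2, a related factor active in development, read 10.15, 11.12 and 10.15 FPKM at 0 h, then 7.86, 7.66 and 8.74, and 8.75, 7.39 and 8.32. Every later library lay below the 0 h range, with changes of -0.34 ± 0.08 (adjusted p = 0.00561) and -0.33 ± 0.08 (adjusted p = 0.0066) that stayed called in all 21 alternatives. The ratio of HSF1 to HSF2 was 4.08 ± 0.28, 6.39 ± 0.95 and 5.33 ± 0.57.

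Among the HSP70 genes, 4 of 7 listed were tested, with 0 higher and 2 lower at 48 h and 0 and 3 at 72 h. Called were thus 50% and 75% of only 4 genes, beside 49.9% and 45.5% of all tested genes. HSPA8 (chromosome 9, 49982278 to 49986760) read 618, 621 and 636 FPKM at 0 h, 698, 643 and 699 at 48 h and 562, 536 and 587 at 72 h. The 3 times did not overlap, 48 h being highest and 72 h lowest. The rise at 48 h was not called (0.12 ± 0.06, adjusted p = 0.106). The difference between 48 h and 72 h was called at -0.28 ± 0.06 (adjusted p = 0.00671), though not once a trend with gene span was removed (-0.13, adjusted p = 0.209). The fall of 0.16 from 0 h to 72 h (adjusted p = 0.0452) was lost without any one of the 0 h libraries or 72 h replicate 1 or 2 (adjusted p = 0.0967 to 0.14), but was -0.32 after quantile normalization and -0.27 with the span trend removed.

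HSPA13, an HSP70 of microsomes, read 29.7, 29.1 and 33.0 FPKM at 0 h, 16.4, 20.4 and 24.9 at 48 h and 24.6, 22.4 and 25.2 at 72 h. All 6 later libraries lay below those of 0 h. It fell by 0.57 ± 0.12 at 48 h (adjusted p = 0.00321), and its fall of 0.33 at 72 h (adjusted p = 0.0438) was lost when any one of the 0 h or 72 h libraries or 48 h replicate 2 was left out (adjusted p = 0.0599 to 0.141). HSPA14, which works on ribosomes, read 27.97, 25.62 and 31.57 FPKM at 0 h, 20.3, 21.5 and 23.1 at 48 h and 18.2, 24.2 and 21.5 at 72 h. It too was lower in all 6 later libraries, by 0.37 ± 0.11 at 48 h (adjusted p = 0.0134; 0.0596 without 0 h replicate 3) and 0.40 ± 0.11 at 72 h (adjusted p = 0.00943). Its ribosomal J protein partner DNAJC2 stood at -0.03 and -0.21 (adjusted p = 0.787 and 0.0953). HSPA12A, a distant relative, lay at 2.11, 1.83 and 2.00 mean FPKM and was not called.

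The heat-inducible HSP70 gene HSPA6 did not pass 0.13 FPKM, nor HSPA1L, known mainly from testis, 0.38. The symbol HSP70.2, which RefSeq gives as the name of the pig gene with HSPA1A and HSPA1B as synonyms, was not taken by the rule, and its values were looked at afterwards. It lies on chromosome 7 at 23925929 to 23927854, within the span of HSPA1L. HSP70.2 read 26.4, 26.2 and 26.7 FPKM at 0 h, 44.9, 51.0 and 44.8 at 48 h and 38.7, 44.3 and 35.6 at 72 h. All later libraries lay above 0 h, by 0.80 ± 0.08 at 48 h (limma adjusted p = 3.27e-05) and 0.56 ± 0.08 at 72 h (adjusted p = 0.000267), called in all 21 alternatives, with 0.45 at 48 h once the trend with gene span was removed. Reads of near-identical HSP70 copies may be shared between them, so this level is uncertain.

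All 3 HSP110 genes, whose products are exchange factors of HSP70, fell at both times, with median log2 changes of -0.32 and -0.46. None was called between 48 h and 72 h. Lower calls made up 22.4% and 22.5% of all tested genes at 48 h and 72 h. HSPA4L (chromosome 8, 97032179 to 97088240) read 13.0, 13.6 and 13.6 FPKM at 0 h, 5.53, 7.04 and 7.62 at 48 h and 6.05, 5.31 and 5.39 at 72 h. The lowest 0 h library was well above the highest later one. Its changes of -0.91 ± 0.10 (adjusted p = 5.04e-05) and -1.13 ± 0.10 (adjusted p = 5.83e-06) were the lowest of all tested members at both times. On FPKM + 1 this was 1.88-fold and 2.19-fold lower, with mean FPKM of 13.4, 6.73 and 5.58 at the 3 times. HSPA4 (chromosome 2, 135345724 to 135391112), the most abundant of the family, read 121, 123 and 123 FPKM, then 99.0, 98.2 and 106, and 93.3, 80.8 and 99.9. It fell by 0.27 ± 0.07 (adjusted p = 0.0112) and 0.42 ± 0.07 (adjusted p = 0.000912), again with no overlap with 0 h, and its 48 h change was -0.43 after quantile normalization and -0.41 with equal sums.

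HSPH1 (chromosome 11, 7733874 to 7759528), a heat-inducible HSP110, read 23.7, 24.7 and 26.1 FPKM at 0 h, 20.9, 18.2 and 20.2 at 48 h and 18.7, 15.1 and 20.0 at 72 h. Each later library was below each 0 h library. It fell by 0.32 ± 0.10 at 48 h (adjusted p = 0.0192) and 0.46 ± 0.10 at 72 h (adjusted p = 0.00288), and the 48 h call was lost without 0 h replicate 3 or 48 h replicate 2 (adjusted p = 0.0704 to 0.0769). All 3 genes were called lower at both times under each of the 4 other scalings. The ratio of HSPA4L to HSPA4 was 0.110 ± 0.0021 at 0 h, 0.0665 ± 0.0092 at 48 h and 0.0615 ± 0.0066 at 72 h, and that of HSPH1 to HSPA8 was 0.0397 ± 0.0013, 0.0290 ± 0.00082 and 0.0319 ± 0.0032.

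Of the other exchange factors, 6 of 6 were tested, with 1 higher and 0 lower at 48 h and 0 and 1 at 72 h. That is 16.7% at each time, beside 49.9% and 45.5% of all tested genes. HSPBP1 (chromosome 6, 59452934 to 59464533) read 37.2, 33.0 and 37.5 FPKM at 0 h, 54.7, 47.4 and 43.5 at 48 h and 34.6, 36.2 and 33.8 at 72 h. The 48 h libraries stood apart from all others, and 0 h and 72 h overlapped. Its rise of 0.42 ± 0.08 at 48 h (adjusted p = 0.00226) and its fall of 0.46 ± 0.08 from there to 72 h (adjusted p = 0.00355) stayed called in all 21 alternatives, the rise at 0.26 with the trend with gene span removed. BAG3, an HSF1 target that sends clients to autophagy, read 46.8, 48.0 and 45.3 FPKM, then 50.4, 45.2 and 45.9, and 49.0, 44.5 and 48.2. The 3 times overlapped throughout, with log2 changes of 0.01 ± 0.06 and 0.02 ± 0.06 from 0 h (adjusted p = 0.877 and 0.856). BAG2, at 2.16 mean FPKM at 0 h and 1.54 at 72 h, fell by 0.31 ± 0.10 at 72 h (adjusted p = 0.0217, or 0.0625 to 0.077 without 0 h replicate 2 or 3 or 72 h replicate 1 or 2).

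The HSP90 gene measured here, HSP90AB1 (chromosome 7, 39237299 to 39250479), was called in no comparison. It read 428, 429 and 434 FPKM at 0 h, 493, 451 and 438 at 48 h and 387, 411 and 433 at 72 h. All 48 h libraries lay above the narrow 0 h range, and 72 h overlapped it. Changes were 0.10 ± 0.06 (adjusted p = 0.225) and -0.07 ± 0.06 (adjusted p = 0.384), and -0.17 ± 0.06 between 48 h and 72 h (adjusted p = 0.0719, or 0.0371 without 48 h replicate 3). STIP1, which bridges HSP70 and HSP90, read 77.3, 73.0 and 75.4 FPKM, then 87.5, 80.2 and 85.0, and 68.9, 70.8 and 73.2. Its 48 h libraries lay above all others. It rose by 0.16 ± 0.06 at 48 h (adjusted p = 0.0326), a call lost without any one 0 h library or 48 h replicate 1 or 3 (adjusted p = 0.0537 to 0.118) and after quantile normalization (0.01, adjusted p = 0.947). It fell by 0.24 ± 0.06 between 48 h and 72 h (adjusted p = 0.0101), a call lost after quantile normalization and with equal sums (adjusted p = 0.0546 to 0.0574). AHSA1, which speeds the ATPase of HSP90, was called in no comparison, at 71.9, 66.7 and 72.2 FPKM, then 83.6, 72.4 and 75.7, and 71.8, 61.5 and 68.2.

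Of 35 J proteins listed, 28 were tested, with 3 higher and 5 lower at 48 h, 3 and 5 at 72 h, and 0 and 1 between 48 h and 72 h. While 49.9%, 45.5% and 25.4% of all tested genes were called, the shares were 28.6%, 28.6% and 3.57% for these J proteins. Their median log2 changes were -0.04, -0.04 and 0.01. The abundant cytosolic J proteins were among the 17 called at neither time. DNAJA1 read 94.1, 90.8 and 95.8 FPKM at 0 h, 98.3, 99.4 and 101 at 48 h and 90.7, 86.8 and 94.5 at 72 h. DNAJB1, the J protein most induced by heat, read 39.1, 39.7 and 38.8, then 43.8, 42.6 and 37.9, and 36.6, 39.7 and 32.0. Their 48 h changes of 0.09 ± 0.05 and 0.07 ± 0.08 had adjusted p = 0.179 and 0.471.

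DNAJC9, a J protein that binds histones, fell. It read 13.4, 12.7 and 13.8 FPKM at 0 h, 8.80, 10.3 and 10.5 at 48 h and 8.68, 9.28 and 9.0 at 72 h, with no overlap with 0 h. The changes of -0.40 ± 0.08 (adjusted p = 0.00152) and -0.52 ± 0.08 (adjusted p = 0.000245) stayed called in all 21 alternatives, the former at -0.64 with the trend with gene span removed. DNAJB5 read 5.74, 5.35 and 4.77 FPKM, then 3.80, 3.73 and 3.96, and 3.84, 4.21 and 4.57. Every later library was below 0 h, by 0.38 ± 0.08 at 48 h (adjusted p = 0.00396, or -0.57 with that trend removed) and 0.27 ± 0.08 at 72 h (adjusted p = 0.0218; 0.0646 to 0.0936 without 0 h replicate 1 or 2 or 72 h replicate 1). DNAJB12, of the endoplasmic reticulum membrane, fell by 0.19 and 0.23 (adjusted p = 0.0241 and 0.00994), and its 48 h call was lost without 0 h replicate 2 or 3 or 48 h replicate 2 (adjusted p = 0.0589 to 0.0862). DNAJA4 fell by 0.36 at 72 h (adjusted p = 0.00967). The remaining lower calls sat close to the threshold. DNAJC16 and DNAJC24 were called at 48 h at -0.31 and -0.25 (adjusted p = 0.0476 and 0.0496), and leaving out 1 library ended the call for 8 and 7 of the 9 libraries, all but 48 h replicate 3 and, for DNAJC24, 72 h replicate 3 (adjusted p of up to 0.166 and 0.161). DNAJC11 was called at 72 h at -0.20 (adjusted p = 0.0356), lost without any one 0 h or 72 h library (adjusted p = 0.0513 to 0.0911).

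DNAJC4 was the J protein with the firmest rise. It read 20.0, 18.8 and 20.9 FPKM at 0 h, 30.3, 27.1 and 23.8 at 48 h and 29.5, 31.5 and 26.4 at 72 h, all later libraries above 0 h. It rose by 0.42 ± 0.09 at 48 h (adjusted p = 0.00376, or 0.0763 at 0.15 once the trend with gene span was removed) and by 0.52 ± 0.09 at 72 h (adjusted p = 0.000922). DNAJC19, of the mitochondrial import motor, had a larger change and a wider spread. Its 0 h libraries read 29.8, 18.1 and 15.9 FPKM, those of 48 h 25.7, 31.4 and 34.6 and those of 72 h 28.1, 38.8 and 28.7. Replicate 1 of 0 h lay within the range of both later times. The changes of 0.54 ± 0.21 and 0.60 ± 0.21 (adjusted p = 0.047 and 0.035) were lost in 14 and 8 of 21 alternatives, among them those without 0 h replicate 2 or 3, and the former came to 0.31 with the trend with gene span removed. Left-out libraries that ended its 48 h call were also 48 h replicates 2 and 3 and 72 h replicates 1 and 3 (adjusted p = 0.0566 to 0.177), and for its 72 h call 72 h replicate 2 (adjusted p = 0.11 to 0.137 with the 0 h pair). DNAJC7, which carries client proteins between HSP70 and HSP90, rose at 48 h by 0.20 (adjusted p = 0.0118). That call was lost after quantile normalization (0.12, adjusted p = 0.0753) and with equal sums (0.07, adjusted p = 0.281). DNAJC25 was called at 72 h at 0.22 (adjusted p = 0.0498), lost in 11 of 19 alternatives, those without any one 0 h library, 48 h replicate 2 or 3 or 72 h replicate 1 or 3 included (adjusted p = 0.05 to 0.167).

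The small heat shock proteins went in opposite directions. Of 4 tested of 6 listed, 2 were higher and 0 lower at 48 h, and 1 higher and 2 lower at 72 h. Called were 50% and 75% of these 4, beside 49.9% and 45.5% of all tested genes. HSPB6 (chromosome 6, 45181439 to 45184011), a small heat shock protein best known from muscle, read 175, 167 and 159 FPKM at 0 h, 290, 293 and 252 at 48 h and 388, 429 and 354 at 72 h. The 3 times did not overlap and stepped upward. HSPB6 rose by 0.73 ± 0.08 at 48 h (adjusted p = 6.66e-05), 1.22 ± 0.08 at 72 h (adjusted p = 8.43e-07) and 0.49 ± 0.08 between them (adjusted p = 0.00227), the highest log2 change of all tested members in each comparison. At 72 h this was 2.32-fold on FPKM + 1. All 3 calls stayed in all 21 alternatives, but the 48 h change came down to 0.41 once the trend with gene span was removed. HSPB1 (chromosome 3, 10038074 to 10039441), which also binds actin filaments, read 492, 475 and 476 FPKM at 0 h, 639, 597 and 523 at 48 h and 436, 477 and 382 at 72 h. Its 48 h libraries lay above all others, while 0 h and 72 h overlapped. HSPB1 rose by 0.28 ± 0.09 at 48 h (adjusted p = 0.0239), a call lost without 0 h replicate 2 or 3 or 48 h replicate 1 or 2 (adjusted p = 0.0669 to 0.0831). The rise was 0.14 and not called after quantile normalization (adjusted p = 0.0921) and with equal sums (adjusted p = 0.114). Its sign turned once the trend with gene span was removed (-0.10, adjusted p = 0.135).

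From 48 h to 72 h HSPB1 fell by 0.44 ± 0.09 (adjusted p = 0.00592), a call kept in all 21 alternatives, at -0.25 with the trend with gene span removed. The ratio of HSPB6 to HSPB1 was 0.347 ± 0.011 at 0 h, 0.475 ± 0.019 at 48 h and 0.905 ± 0.018 at 72 h, without overlap between times. HSPB7 (chromosome 6, 75171507 to 75174918), known from heart and skeletal muscle, read 6.40, 5.86 and 6.30 FPKM at 0 h, 6.19, 6.04 and 4.96 at 48 h and 3.34, 3.28 and 3.52 at 72 h. The 72 h libraries lay below all others and the earlier times overlapped. HSPB7 fell by 0.71 ± 0.09 from 0 h to 72 h (adjusted p = 6.04e-05) and by 0.62 ± 0.09 from 48 h (adjusted p = 0.000667). HSPB8, the partner of BAG3, read 11, 8.64 and 9.83 FPKM, then 9.02, 9.52 and 8.91, and 7.29, 7.42 and 7.60, again lowest at 72 h. It fell by 0.35 ± 0.08 from 0 h to 72 h (adjusted p = 0.00489). DES, a muscle marker, stood beside these at 1440, 889 and 919 mean FPKM, and ACTA1 at 3.96, 1.03 and 1.03. Of the muscle regulators, MYOD1 did not pass 0.14 FPKM in any library, MYOG stood at means of 0.453, 1.28 and 1.15, and MYF5 at 0.68, 0.37 and 0.193. The part of such cells in the small heat shock protein values was not tested.

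**Figure D4:**
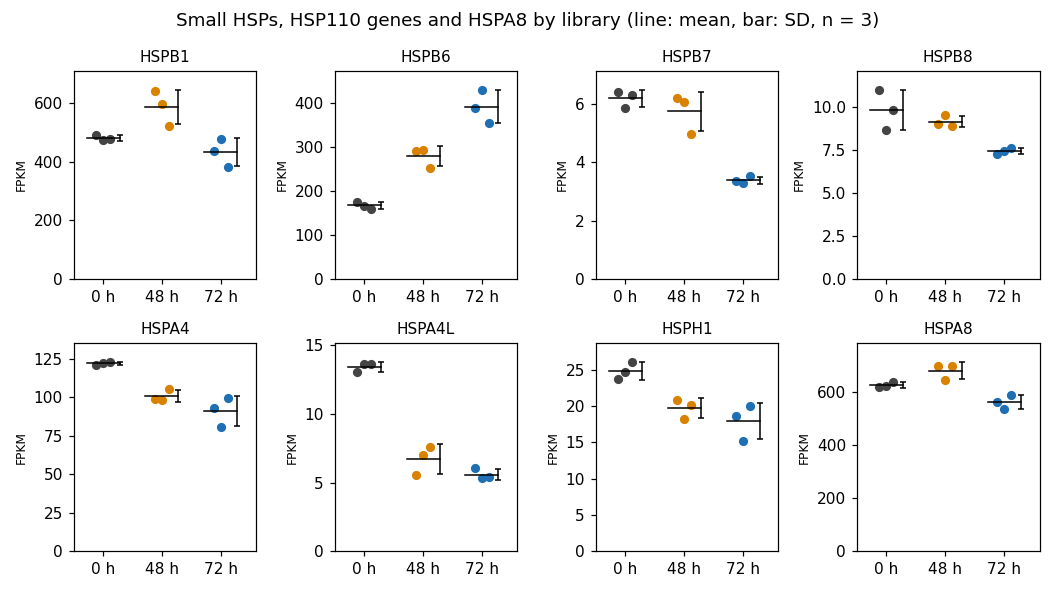
FPKM (axis from 0) in each library at 0 h, 48 h and 72 h for the 4 small heat shock proteins tested, the 3 HSP110 genes and HSPA8, with the mean as a line and the SD (n = 3) as a bar. HSPB6 steps up from 159 to 175 at 0 h to 354 to 429 at 72 h, HSPB7 drops at 72 h only, and the HSP110 genes are below 0 h at both later times.

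Of the 4 mitochondrial chaperones, 1 was higher and 1 lower at 48 h (50%) and 0 were called at 72 h, beside 49.9% and 45.5% of all tested genes. HSPD1 and HSPE1, which encode the chamber and lid of the mitochondrial chaperonin, are neighbours on chromosome 15 (101360355 to 101373498 and 101374019 to 101376146), 520 bases apart. HSPE1 read 224, 217 and 226 FPKM at 0 h, 266, 270 and 247 at 48 h and 234, 233 and 228 at 72 h. Its 48 h libraries lay above all others and HSPE1 rose by 0.23 ± 0.05 (adjusted p = 0.00465). That rise was not called after quantile normalization or with equal sums (adjusted p of up to 0.561), and it turned to -0.11 once the trend with gene span was removed (adjusted p = 0.0805). Its fall of 0.17 to 72 h (adjusted p = 0.0361) was lost without any one library other than 48 h replicate 3 (adjusted p = 0.0552 to 0.13). HSPD1 read 107, 110 and 112 FPKM, then 118, 118 and 117, and 102, 102 and 114. Its 48 h libraries were also the highest, but the change of 0.10 ± 0.06 was not called (adjusted p = 0.169). HSPA9 read 191, 191 and 192 FPKM at 0 h, 169, 175 and 178 at 48 h and 185, 190 and 198 at 72 h. It fell by 0.13 ± 0.05 at 48 h (adjusted p = 0.0433), a call lost without any one 0 h library, 48 h replicate 1 or 2 or 72 h replicate 1 (adjusted p = 0.0534 to 0.117), while quantile normalization, equal sums and removal of the span trend gave -0.30, -0.27 and -0.24. DNAJA3, the matrix J protein, was not called.

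The chaperonin TRiC was lower at 72 h. Of its 7 subunits measured, 1 was called lower at 48 h, 5 at 72 h, and 6 between 48 h and 72 h, with 0 higher. These are 14.3%, 71.4% and 85.7% of 7 genes, beside 22.4%, 22.5% and 16.3% of all tested genes called lower. Median log2 changes of the subunits were 0.01, -0.23 and -0.21. Summed over the 7 subunits, TRiC stood at 686 ± 10.4 FPKM at 0 h, 681 ± 29.3 at 48 h and 581 ± 14.0 at 72 h. Their genes lie on 6 chromosomes, with CCT4 and CCT7 both on chromosome 3. By library, 72 h replicates 1, 2 and 3 lay below the 0 h range for 7, 7 and 6 subunits, at median distances of -0.18, -0.20 and -0.19 from the 0 h mean on the log2 scale. Genes at large were not counted this way by library. The 72 h and 0 h libraries did not overlap for 6 of the 7 subunits, beside 58.6% of all tested genes in either direction. The 48 h libraries were less alike, at 0.12, -0.07 and 0.01.

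CCT8 (chromosome 13, 192407831 to 192423466) fell earliest. It read 73.3, 72.5 and 76.6 FPKM at 0 h, 63.7, 60.7 and 61.5 at 48 h and 55.8, 51.6 and 55.7 at 72 h, stepping down without overlap. The changes from 0 h were -0.25 ± 0.05 (adjusted p = 0.0033) and -0.44 ± 0.05 (adjusted p = 8.29e-05), both called in all 21 alternatives, the former at -0.41 after quantile normalization and -0.39 with equal sums. CCT3 (chromosome 4, 93733967 to 93753340) read 195, 190 and 193 FPKM, then 210, 183 and 191, and 158, 151 and 162. Only the 72 h libraries stood apart, at -0.30 ± 0.06 from 0 h (adjusted p = 0.00219) and -0.31 ± 0.06 from 48 h (adjusted p = 0.00472). CCT5 (chromosome 16, 72211452 to 72223202) read 43.2, 42.4 and 42.3 FPKM, then 48.6, 46.6 and 43.8, and 34.2, 37.0 and 34.0. Its 48 h libraries were the highest and its 72 h libraries the lowest, at -0.28 ± 0.06 from 0 h (adjusted p = 0.00314) and -0.39 ± 0.06 from 48 h (adjusted p = 0.00116). The calls of CCT3 and CCT5 stayed in all 21 alternatives.

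TCP1 (chromosome 1, 7590140 to 7600709) read 129, 131 and 133 FPKM, then 135, 122 and 132, and 115, 106 and 115. It fell by 0.23 ± 0.06 from 0 h to 72 h (adjusted p = 0.00991), with no overlap. CCT7 (chromosome 3, 69527238 to 69540489) read 142, 139 and 144 FPKM, then 155, 147 and 137, and 128, 127 and 124. Its fall of 0.17 ± 0.06 at 72 h (adjusted p = 0.0324) was lost without any one library of 0 h or 72 h or 48 h replicate 2 (adjusted p = 0.0511 to 0.106), and was -0.28 after quantile normalization. CCT4 (chromosome 3, 79924338 to 79941926) read 35.3, 34.0 and 35.9 FPKM, then 38.8, 35.7 and 36.6, and 31.8, 31.1 and 33.0, and was called between 48 h and 72 h alone (-0.21 ± 0.06, adjusted p = 0.0231). CCT2 (chromosome 5, 33858514 to 33873596) read 66.4, 66.5 and 71.0 FPKM, then 63.3, 63.9 and 69.2, and 63.5, 61.7 and 66.7. All 3 times overlapped and no comparison was called (72 h against 0 h -0.09 ± 0.06, adjusted p = 0.262).

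How many subunits were called depended on the scaling. At 72 h against 0 h, 5 or 6 were lower under each of 4 other scalings, with medians from -0.32 to -0.22. Over all tested genes, lower calls there numbered 2487 as deposited and 2433 to 2927, or 2312 of 9306 with the trend with gene span removed. Between 48 h and 72 h, 2 were lower after quantile normalization, with equal sums and with the trend with gene span removed, and 4 with the median gene held still. Over all tested genes, lower calls there numbered 1800 as deposited, then 1387, 1127, 1207 of 9306 and 1455 in that order. The calls of TCP1, CCT4, CCT7 and CCT8 between 48 h and 72 h were lost without 48 h replicate 1 or 72 h replicate 1 (adjusted p = 0.0507 to 0.0815). Other left-out libraries did the same for CCT4 and TCP1 (72 h replicate 2), for CCT7 (48 h replicate 2 and 72 h replicate 3) and for CCT8 (0 h replicate 1, 48 h replicate 2 and 72 h replicate 2), within the same range of adjusted p.

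**Figure D5:**
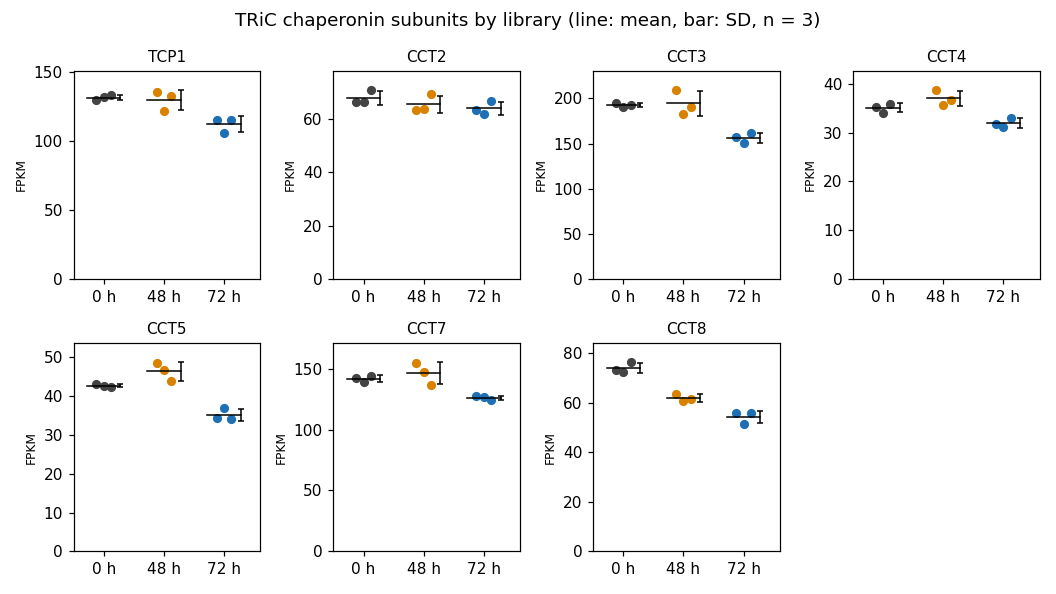
FPKM (axis from 0) in each library at 0 h, 48 h and 72 h for the 7 subunits of the TRiC chaperonin, with the mean as a line and the SD (n = 3) as a bar. CCT8 is lower at 48 h and 72 h, TCP1, CCT3, CCT5 and CCT7 at 72 h, and CCT2 overlaps at all 3 times.

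Other genes of protein folding were read from lists made beside the members. For scale, 27.6% of all tested genes were higher and 22.4% lower at 48 h, and 23% and 22.5% at 72 h. Between 48 h and 72 h these shares were 9.17% and 16.3%. Of 7 tested substrates of TRiC, 4 were lower at 48 h, 7 at 72 h and 5 between 48 h and 72 h, with none higher and medians of -0.22, -0.41 and -0.23. CDC20, an activator of the mitotic ubiquitin ligase, fell from 64.6 ± 2.33 to 48.1 ± 3.02 and 18.4 ± 2.58 FPKM, by 1.77 ± 0.09 at 72 h (adjusted p = 7.98e-08). The tubulin gene TUBB6 fell from 394 ± 13.2 to 281 ± 26.7 and 211 ± 7.20 FPKM, by 0.90 ± 0.07 at 72 h (adjusted p = 2.3e-06). Of 7 prefoldins and chaperonin helpers, which deliver clients to TRiC, 2 were higher and 1 lower at 48 h, 0 and 1 at 72 h, and 0 and 3 between them. PFDN5 rose at 48 h by 0.45 ± 0.09 (adjusted p = 0.00222, or 0.0543 at 0.18 with the trend with gene span removed) and fell by 0.38 to 72 h (adjusted p = 0.0124, or -0.23 at 0.0365 with that trend removed). PFDN1 went the same way at 0.24 and -0.33. The PFDN1 rise was lost without 0 h replicate 2 or 3 or 48 h replicate 1 or 2 (adjusted p = 0.0505 to 0.0664). It was also lost after quantile normalization (0.18, adjusted p = 0.0544) and with equal sums (0.11, adjusted p = 0.161). Of 5 tubulin folding cofactors, 3 were higher at 48 h and 0 were called otherwise, TBCA at 0.53 ± 0.14 (adjusted p = 0.00969) and TBCC at 0.34 ± 0.11 (adjusted p = 0.0242). The TBCC call was lost without 0 h replicate 1 or 2 or 48 h replicate 1 or 2 (adjusted p = 0.0766 to 0.083) and with equal sums (0.22, adjusted p = 0.0956). Its sign turned with the trend with gene span removed (-0.05, adjusted p = 0.662).

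Of 14 helpers of HSP90 and HSP70, 4 were higher and 1 lower at 48 h, 2 and 5 at 72 h, and 0 and 8 between 48 h and 72 h. STUB1, a ubiquitin ligase that tags HSP70 clients, rose from 60.7 ± 1.15 to 93.0 ± 7.56 FPKM at 48 h (0.60 ± 0.08, adjusted p = 0.000241, or 0.28 with the trend with gene span removed) and stood at 74.9 ± 8.21 at 72 h. PPP5C, a phosphatase bound to HSP90, read 18.3 ± 0.50 FPKM, then 17.6 ± 0.66 and 12.4 ± 0.70, and fell by 0.53 ± 0.06 at 72 h (adjusted p = 5.8e-05). Of 6 mitochondrial helpers and proteases, 1 was higher and 1 lower at each of 48 h and 72 h. The protease subunit CLPP rose by 0.41 ± 0.09 at 48 h (adjusted p = 0.0031, or 0.18 at 0.0477 with that trend removed), and the disaggregase CLPB fell by 0.36 ± 0.08 at 72 h (adjusted p = 0.00316). Of 8 genes that HSF1 is known to regulate and that are no heat shock protein by the rule, 4 were higher and 1 lower at 48 h and 5 and 1 at 72 h. RGS2 rose from 2.25 ± 0.14 to 5.01 ± 0.43 and 6.14 ± 1.11 FPKM. CRYAB, the small heat shock protein alpha-B crystallin under another symbol, fell from 179 ± 11.2 to 121 ± 29.7 and 117 ± 21.9 FPKM (-0.59 ± 0.17 and -0.63 ± 0.17, adjusted p = 0.0144 and 0.0108, the former 0.0583 without 48 h replicate 2 and at -0.89 with library weights). Over all 47 tested genes of these lists, 14 were higher and 8 lower at 48 h, 8 and 15 at 72 h, and 0 and 17 between 48 h and 72 h. In all, 46.8%, 48.9% and 36.2% of them were called, beside 49.9%, 45.5% and 25.4% of all tested genes. The shares against 0 h were thus near those of all genes.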

How the data were processed

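RNA of 9 libraries was measured, 3 each at 0 h, 48 h and 72 h. Per the labels' protocols, NEBNext Ultra libraries were made from total RNA depleted of ribosomal RNA. The deposited values are FPKM with 2 decimals, made by the authors per the file headers. Tools named in the submitters' processing notes are DESeq2, featureCounts 2.0.2, HISAT2 2.1.0 and RSEM 1.2.28, with the build Sscrofa11.1. The sources used here do not say which of them made the values, or with what annotation and use of strand. Reads of overlapping genes and near-identical copies may thus be shared.

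The 11063 genes that reached an FPKM of 1 in 3 or more libraries (9875 with a symbol) entered a single fit on log2(FPKM + 1) in limma 3.58.1 (R 4.3.3), with time as the only term, a trend in the prior variance and 6 residual degrees of freedom, and Benjamini-Hochberg adjustment over all of them. All tests were two-sided. The fit was tested on simulated data. Standard errors of log2 changes had a median of 0.0883. Depth is unknown, so no counting intervals were computed. Coordinates came from a RefSeq table matched by symbol (73 of 74 members).

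Replicate numbers were not treated as pairs. Members, classes and lists were chosen with earlier results of these data known. Named were 22 members by role, and the 6 highest and 6 lowest called members of each comparison, 33 in all, plus 2 called genes per pathway list; other members were named after their values were seen. Alternatives varied the pseudocount, filter, scaling, variance model, libraries and, added after seeing the data, the genes with a span. "Gene span trend removed" means that a smooth (lowess) trend of each library's log2 values with the genomic span of genes was taken out. No sequence is printed.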

Additional observations from a re-analysis of the deposited data

Results flagged for a closer look

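For 14 of the 33 named members, the changes from 0 h differed between 48 h and 72 h by limma's test of 72 h minus 48 h on log2(FPKM + 1). This test is itself the difference of the changes at these times, since both share the 0 h libraries. Of all tested genes 25.4% were called there, and of the tested members 25.8%. Some of the 14 were named because they ranked among the 6 highest or lowest called members of this comparison. The calls of HSPA8, HSF1, STIP1, HSPE1, CCT7, TCP1, CCT4 and CCT8 were each lost in at least 1 alternative. HSPB6 went further up, by 0.49. The other 13 were lower at 72 h than at 48 h. Among the small heat shock proteins and HSP70 helpers, HSPB7 differed by -0.62, HSPBP1 by -0.46 and HSPB1 by -0.44. HSPA8 differed by -0.28, HSF1 by -0.24, STIP1 by -0.24 and HSPE1 by -0.17. Among the TRiC subunits, the difference was -0.39 for CCT5, -0.31 for CCT3, -0.21 for CCT7, -0.21 for TCP1, -0.21 for CCT4 and -0.19 for CCT8.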

How the results depend on the processing

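Up to 21 alternatives kept 28 of 51 calls of named members in every case and ended 23 in at least 1. Members called higher at 48 h numbered 9 as deposited, 3 after quantile normalization, 3 with equal FPKM sums, 5 with the gene span trend removed and 18 with library weights, whose estimation stopped before it converged, and 6 to 10 with 1 library left out. Calls over all 11063 tested genes moved as well, the higher ones from 3048 as deposited to 2665, 1959, 2176 (of 9306) and 4223 in that order. Lower calls of members at 48 h numbered 13, 21 with equal sums, and 7 to 14 with 1 library left out (7 without 0 h replicate 3, 8 without 48 h replicate 2). Those of all genes numbered 2476, 3691 with equal sums, 1939 without 0 h replicate 3 and 2002 without 48 h replicate 2. At 72 h against 0 h, higher calls of members numbered 4, and 2 with equal sums, with the span trend removed and with the replicate block. With 1 library left out they numbered 2 to 4 (2 without 0 h replicate 2 or 3), and lower calls 14 to 20. Higher calls of all genes numbered 2542 as deposited, 2159 with equal sums, 2274 of 9306 with the span trend removed and 2602 with the block. Between 48 h and 72 h, 1 member was higher, 3 after quantile normalization, 2 with equal sums, 3 with the median gene unmoved, 4 with the span trend removed, 7 with library weights and 1 to 3 with 1 library left out (3 without 48 h replicate 3). Lower calls there numbered 15, then 7, 6, 9, 7 and 27 in that order, 8 with only the groups compared in the fit and 7 to 20 with 1 library left out (8 without 48 h replicate 1, 7 without 72 h replicate 1). For all genes the higher calls there numbered 1014, then 1312, 1426, 1305, 970 (of 9306) and 2408 in the same order. Their lower calls numbered 1800, then 1387, 1127, 1455, 1207 (of 9306) and 3348, and 1205 with only the groups compared. The F-test called 30 members, 47 with library weights and 23 to 33 with 1 library left out. The causes were not tested. Signs turned at 48 h after quantile normalization for CCT7 (-0.14, adjusted p = 0.04), and with the span trend removed for DNAJB1 (-0.24, adjusted p = 0.0046), HSPB1 (-0.098, adjusted p = 0.135) and HSPE1 (-0.11, adjusted p = 0.0805), whose 72 h to 48 h difference became 0.00061 (adjusted p = 0.995). With the replicate number as a block, 8 members were higher and 13 lower at 48 h, 2 and 20 at 72 h, and 1 and 17 between them. For all genes these counts were 3081 and 2551, 2602 and 2550, and 1094 and 1937. Deviations from the group means correlated at -0.0709 to 0.193 for same-numbered libraries and at -0.182 to 0.174 for differently numbered ones. No source used here says whether a number marks a shared culture, and these overlapping ranges cannot settle it.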

Other observations

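The share of all FPKM held by the 5 most abundant members over all libraries (HSPA8, HSPB1, HSP90AB1, HSPB6 and HSPE1) was 0.390% ± 0.0017 (SD, n = 3) at 0 h, then 0.416% ± 0.0063 and 0.394% ± 0.0025. The sum of HSPB1 and HSPB6 alone went from 648 ± 17.1 FPKM to 864 ± 80.4 and 822 ± 84.8. The ratio of HSPE1 to HSPD1, the lid and chamber of the mitochondrial chaperonin, was 2.03 ± 0.063, 2.22 ± 0.086 and 2.19 ± 0.17. The ratio of CCT8 to CCT3 was 0.385 ± 0.010, 0.319 ± 0.014 and 0.347 ± 0.0061, without overlap between the 3 times. DNAJC4 and STIP1 lie 30534 bases apart on chromosome 2, and with HSPD1 and HSPE1 they were the closest pairs among the members listed here.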
